A study of Mus musculus with 16 samples.

Results

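Among IL-4-expressing CD4+ T cells sorted from lung and mesenteric lymph node (MLN), 76 cells carried a T-cell receptor (TCR) alpha chain made of the V segment TRAV11 and the J segment TRAJ18. These cells, called invariant cells here, were found among 4714 cells that had over 500 unique molecular identifiers (UMIs, each a tag for 1 captured transcript), over 500 detected genes, under 7% of UMIs from mitochondrial genes and productive TCRα and TCRβ chains. The choice rested on the TCRα contig alone and used no expression value. In 62 of the 76 cells this contig was full-length, of high confidence and held over 1 UMI. These are the strict contigs named below, and the remaining cells rest on weaker contigs. The 4638 remaining cells of the same libraries, called other cells, served as the comparison.

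The mice were 4get/C57BL/6 mice, in which enhanced GFP reports the Il4 locus, aged 13 weeks and infected 10 days earlier with 500 larvae of Nippostrongylus brasiliensis, a rodent roundworm that passes through the lung to the gut. CD4+IL-4eGFP+ cells were sorted from perfused lung and from MLN of 2 mice, and 5′ RNA and TCR libraries were made from the same cells of each organ. The libraries are lung 1, lung 2, MLN 1 and MLN 2, and values over 4 libraries are given in that order throughout. Every library therefore shares the reporter, the infection and the time point, and no library of uninfected mice was used. The gate required CD4, so natural killer T cells that lack CD4 were left out, and no CD1d tetramer was part of the sort. Lung 1 and MLN 1 come from the same mouse, as do lung 2 and MLN 2.

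Invariant cells made up 3 of 1082 cells in lung 1 (0.277%, exact Clopper-Pearson 95% interval 0.0572 to 0.808), 8 of 416 in lung 2 (1.92%, 0.834 to 3.75), 45 of 2462 in MLN 1 (1.83%, 1.34 to 2.44) and 20 of 754 in MLN 2 (2.65%, 1.63 to 4.07). The share in lung 1 was the lowest, and its interval did not meet those of the 3 other libraries, whose intervals overlapped each other. All intervals cover counting error only. A median of 4893.5 UMIs and 1801.5 genes was detected per invariant cell, against 5432 UMIs and 2014 genes per other cell. Over the invariant cells the libraries held 19105, 49955, 256214 and 92452 UMIs, against 8488144, 2748277, 14256553 and 4385436 in other cells. Of all barcodes, 24 occurred in more than 1 library, 13 of them in kept cells and 0 of them invariant.

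Natural killer T (NKT) cells recognise lipids that are presented by CD1d, a molecule related to MHC class I, in place of peptides on MHC. In mice the invariant type pairs the Vα14-Jα18 alpha chain, in current nomenclature TRAV11 with TRAJ18, with a beta chain drawn from few V segments, mainly Vβ8, Vβ7 and Vβ2 (TRBV13, TRBV29 and TRBV1). They mature in the thymus under the transcription factor PLZF (Zbtb16), leave it with a memory-like state and with cytokine transcripts already made, and are grouped by their factors and cytokines into NKT1, NKT2 and NKT17 cells, with T-bet in the first and GATA3 in the second group. IL-4 transcripts in NKT cells make them visible in IL-4 reporter mice without a Th2 response to a peptide.

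The alpha chain junctions are shown first because they are what the cells have in common. The 76 cells held 12 different nucleotide junctions, from the first to the last base of the CDR3, and all 12 were 45 bases long. Lower case marks the unbroken match to the germline V segment from the V side first, then that to the J segment from the J side. Capitals mark the bases between these matches, which may still equal a germline base at their position.
junction 1, 30 cells: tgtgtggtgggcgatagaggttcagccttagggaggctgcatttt
junction 2, 22 cells: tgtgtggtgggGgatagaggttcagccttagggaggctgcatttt
junction 3, 8 cells: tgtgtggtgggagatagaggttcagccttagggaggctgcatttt
junction 4, 7 cells: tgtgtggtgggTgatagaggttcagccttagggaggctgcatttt
junction 5, 2 cells: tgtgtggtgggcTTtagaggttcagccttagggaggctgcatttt
junction 6, 1 cell: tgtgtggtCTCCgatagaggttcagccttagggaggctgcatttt

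The germline ends they join lie on chromosome 14 of GRCm38, both on the plus strand, in the RefSeq genome with GENCODE annotation. The last bases of the Trav11 V exon, from the first base of the CDR3, lie at chr14:53519847-53519859, and the first bases of the Traj18 J segment, up to the last base of the CDR3, at chr14:54200777-54200811. Trav11d, a second copy of the V segment, ends 1 base shorter in the same letters at chr14:52824901-52824912, so the assignment between the copies was not used.
Trav11 end: tgtgtggtgggcg
Trav11d end: tgtgtggtgggc
Traj18 start: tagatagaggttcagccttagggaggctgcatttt

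Junction 1 is the Trav11 end joined to Traj18 without any added base and was the commonest. The first 4 junctions differ from each other at 1 position alone, base 12 of the CDR3, and code for the same amino acids, and together they covered 67 of 76 cells (88.2%, 95% interval 78.7 to 94.4). The 12 junctions coded for 6 amino acid sequences, and 7 junctions were seen in 1 cell each. The unbroken match to the V segment ran over 8 to 13 bases and that to the J segment over 31 to 35, with 0 to 4 bases in between. The commonest junction was present in every library, in 1, 4, 17 and 8 cells, and junction 2 in 2, 2, 12 and 6 cells. Every cell with junction 1, 2, 3 or 4 had its own beta chain, 30, 22, 8 and 7 different ones, so none of these cells had the same pair of chains as another of them.

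Expression of 5 genes fixed as markers of NKT-like cells is described next. All 5 rose in invariant cells against other cells, where 1.94% of all tested genes rose. Zbtb16, Klrb1c and Cxcr3 passed the filter on low counts, given below, only with the UMIs of invariant cells, which favours a rise. Of 664 genes that did so 66 rose, against 98 of the other 7810. Only Nkg7 and Il2rb were let through by other cells, and both rose. The 5 markers were chosen with earlier results of these data known, so their rise describes the cells and does not test the name. The largest difference was that of Zbtb16, which encodes PLZF (chr9:48654297-48836222, minus strand). For each library the UMIs of invariant and of other cells were summed without TCRα and TCRβ genes and given as CPM, UMIs per 1000000 UMIs of that sum. In lung 1, lung 2, MLN 1 and MLN 2, Zbtb16 stood at 419, 642, 278 and 326 CPM in invariant cells and 0, 0, 1.55 and 0.917 CPM in other cells. The groups did not overlap, and other cells of both lungs held no Zbtb16 UMI. In edgeR's quasi-likelihood test of lung 2, MLN 1 and MLN 2, with the library as a block and Benjamini-Hochberg adjustment over 8474 genes, Zbtb16 rose (log2 fold change 8.23 ± 0.38 SE, adjusted p = 6.93e-97). Lung 1, with only 3 invariant cells, stayed out of the test, and its values are given for description, 1 UMI being worth 52.4 CPM there and 20.1, 3.91 and 10.9 CPM in the invariant cells of the other libraries.

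The 4 remaining marker genes encode proteins known from NK cells, NKT cells and effector T cells. Nkg7, a granule protein, measured 209.7, 663, 376 and 282 CPM in invariant cells and 81.7, 31.4, 14.2 and 13.8 CPM in other cells, with every invariant value above every value of other cells. Cxcr3, the receptor for the chemokines CXCL9 and CXCL10, measured 52.4, 301, 137 and 249.9 CPM in invariant cells and 5.20, 28.1, 6.20 and 12.6 CPM in other cells. Klrb1c, which encodes NK1.1, was at 0, 201, 82.2 and 152 CPM in invariant cells and 0.354, 0.365, 7.96 and 9.17 CPM in other cells, and lung 1 was the library without an invariant UMI. Il2rb, the shared receptor chain for IL-2 and IL-15, reached 839, 663, 513 and 445 CPM in invariant cells and 151, 138, 121 and 113 CPM in other cells. Every invariant value lay above every value of other cells. Over the 3 tested libraries the values of all 5 markers did not overlap between the classes, as was so for 7.22% of all tested genes with invariant cells higher and 13.4% with invariant cells lower. For Zbtb16, Klrb1c and Cxcr3, tested only because of their invariant sums, the filter favoured this, so it adds no support for the name. The log2 fold changes were 4.47 ± 0.27 (SE) for Nkg7, 4.19 ± 0.42 for Klrb1c, 4.05 ± 0.33 for Cxcr3 and 2.05 ± 0.23 for Il2rb, with adjusted p-values of 7.07e-57, 2.40e-20, 9.91e-32 and 3.86e-17. With 2 residual degrees of freedom the spread was borrowed from all genes, so these p-values measure the average spread between libraries of 2 mice and not that of each gene.

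**Figure D1:**
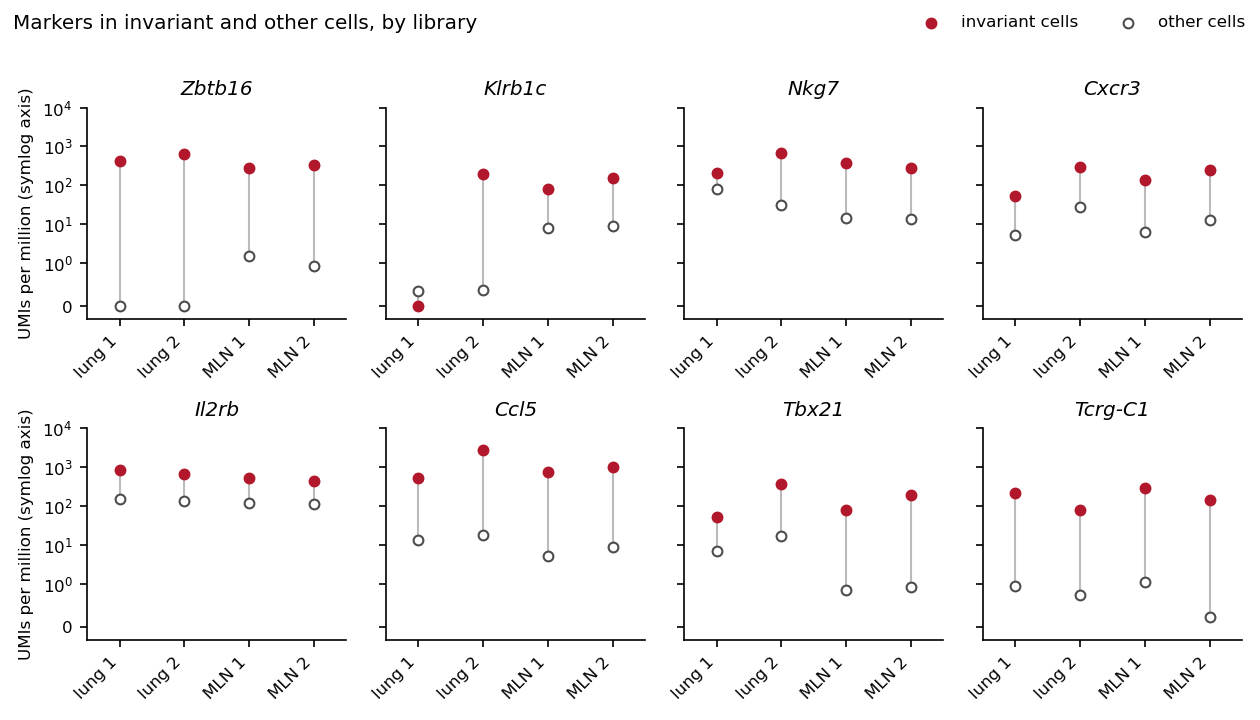
Level of 8 genes in CPM in invariant cells (filled) and other cells (open) of each of the 4 libraries, on an axis that is linear from 0 to 1 and logarithmic above. Each point is the sum over the cells of 1 library, and invariant cells lie above other cells of the same library in each panel except for Klrb1c in lung 1, where the 3 invariant cells held no UMI.

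By cell, a Zbtb16 UMI was found in 51 of 76 invariant cells (67.1%) and 0.388% of other cells, and after thinning each cell to 2000 UMIs in 34.2% and 0.132%. Of 69 kept cells of the 4 libraries with a Zbtb16 UMI 51 were invariant (73.9%, 95% interval 61.9 to 83.7). This share was lower for the other markers, with 39 of 184 cells for Cxcr3 (21.2%) and 21 of 137 for Klrb1c (15.3%). For Nkg7 it was 33 of 281 (11.7%) and for Il2rb 52 of 2012 (2.58%). Of the invariant cells 43 (56.6%) held UMIs of at least 3 of the 5 markers, which 32 other cells did (0.690%), and 8 invariant cells held none of the 5. Cxcr3 UMIs were found in 39 of 76 invariant cells (51.3%) and 3.13% of other cells, Nkg7 in 33 of 76 invariant cells (43.4%) and 5.35% of other cells and Klrb1c in 21 of 76 invariant cells (27.6%) and 2.50% of other cells. A UMI can be missed at this depth and free RNA can add one, so these are shares of cells with a UMI and not of cells that express the gene.

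Across all genes, 364 of 8474 passed the threshold of an adjusted p of 0.05 (4.30%), 164 higher (1.94%) and 200 lower (2.36%) in invariant cells. Of the 164 higher genes 144 were higher in each of the 3 libraries tested, and of the 200 lower genes 188 were lower in each. The median log2 difference over all tested genes was -0.10. DESeq2 called 148 genes, of which 147 were among the 364, and leaving out MLN 1 or MLN 2 gave 194 and 146. Of the 5 marker genes Zbtb16, Klrb1c and Cxcr3 passed the filter on low counts only with the sums of invariant cells. The gene lists were chosen with earlier results of these data known, so their counts describe the cells and support nothing beyond that.

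Of 12 tested genes tied to NKT1 cells 11 rose and 1 fell. The filter on low counts asked for 6.68 CPM in 3 of the 6 sums, and the filter favours a higher value in invariant cells for a gene that met it only with the invariant sums. Of the 12 genes 9 did so, among them Tbx21, Ccl5, Xcl1 and Il12rb2, and the 3 that the other cells' sums let through were 2 that rose and 1 that fell, so the count is no measure of the list. Of all 8474 genes tested 664 needed the invariant sums, and 66 of these rose, against 98 of the other 7810. Tbx21, the gene of T-bet, was at 52.4, 361, 78.3 and 196 CPM in invariant cells and 6.85, 16.8, 0.846 and 0.917 CPM in other cells (log2 fold change 5.69 ± 0.43 SE, adjusted p = 3.39e-37). Ccl5, a chemokine of memory and cytotoxic lymphocytes, reached 524, 2710.3, 728 and 1032 CPM in invariant cells and 13.2, 17.9, 5.29 and 8.94 CPM in other cells (log2 fold change 7.01 ± 0.24 SE, adjusted p = 7.64e-175) and was the most abundant gene of the list. Both were higher in invariant than in other cells of every library. Xcl1, the chemokine that attracts cross-presenting dendritic cells, stood at 367, 201, 70.5 and 206 against 0.236, 2.19, 0.916 and 0.917 CPM (log2 fold change 6.68 ± 0.51 SE, adjusted p = 2.61e-36). The receptor chain Il12rb2, through which IL-12 acts, was at 52.4, 120.5, 7.83 and 32.6 against 0.236, 0, 0.352 and 0.917 CPM (log2 fold change 5.85 ± 1.09 SE, adjusted p = 8.17e-06). Xcl1 did not overlap between the classes in any library. Ifng rose with 0, 120.5, 7.83 and 32.6 against 11.2, 17.9, 0.634 and 0 CPM (log2 fold change 3.30 ± 0.80 SE, adjusted p = 0.00161), but rested on 11 UMIs of invariant cells in the 3 libraries tested. Gzmb, a granzyme, was the member that fell (52.4, 0, 7.83 and 0 against 61.2, 18.6, 60.0 and 7.34 CPM, adjusted p = 0.00930), 8.72-fold lower over the pooled 3 libraries (95% counting interval 2.41 to 72.1, on 2 UMIs).

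T-bet and PLZF transcripts occurred together in part of the cells. UMIs of both Zbtb16 and Tbx21 were found in 18 invariant cells (23.7%, 95% interval 14.7 to 34.8), Zbtb16 alone in 33, Tbx21 alone in 11 and neither in 14. In other cells 5 of 4638 held both. Il4 and Ifng UMIs were found together in 4 invariant cells (5.26%).

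Genes tied to NKT2 cells moved in both directions, 2 up and 2 down among 10 tested, with a median of -0.37. Zbtb16 passed the filter only with the invariant sums, and of the other 9 genes 1 rose and 2 fell. Beside Zbtb16, the receptor chain for IL-25, Il17rb, rose (52.4, 80.3, 114 and 65.2 against 18.1, 17.2, 26.2 and 39.9 CPM, log2 fold change 1.73 ± 0.38 SE, adjusted p = 0.000330). Gata3, the factor of Th2 and NKT2 cells, fell with 209.7, 241, 145 and 97.8 against 835, 786, 212 and 227 CPM (log2 fold change -1.11 ± 0.25 SE, adjusted p = 0.000589). Invariant cells were below other cells in each library, although lung 2 invariant cells were above other cells of MLN. Of 62 Gata3 UMIs of invariant cells 16 came from 1 cell, the deepest of them. Il4 itself, whose reporter was part of the sort in both classes, was at 52.4, 301, 247 and 109 against 448, 389, 399.7 and 323 CPM (log2 fold change -0.86 ± 0.24 SE, adjusted p = 0.0118), and a UMI was found in 42 of 76 invariant cells (55.3%) and 69.2% of other cells. Of the genes tied to NKT17 cells 2 were tested, of which Tmem176a passed the filter only with the invariant sums, which favours a rise. Tmem176a rose (52.4, 40.2, 35.2 and 43.5 against 4.84, 5.47, 2.61 and 5.27 CPM, log2 fold change 3.34 ± 0.68 SE, adjusted p = 5.65e-05) and Il1r1, the other tested gene, did not pass, with 1 UMI in invariant cells (0, 0, 3.91 and 0 against 7.32, 7.30, 9.45 and 9.63 CPM, adjusted p = 0.727). Il17a, which was not tested, had 0 UMIs in invariant cells.

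**Figure D2:**
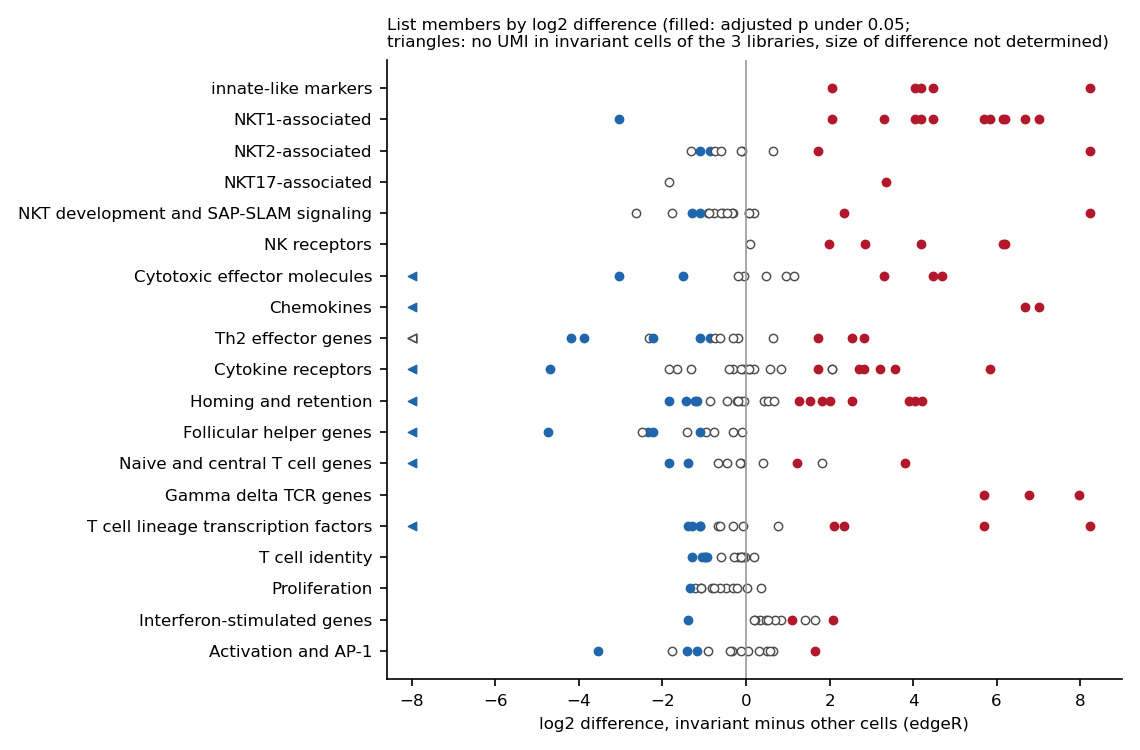
Log2 difference of invariant from other cells for the tested members of each gene list, 1 point per gene, with filled points past an adjusted p of 0.05 and triangles at the left edge for genes with no UMI in invariant cells of the 3 libraries, whose size was not determined. Tested members of the NKT1, NK receptor and gamma delta TCR lists lie mainly above 0, most of them genes that passed the filter only with the invariant sums, and those of the follicular helper and Th2 lists mainly below.

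Of the 23 NK receptor genes 6 could be tested, of which 5 rose and 0 fell. Of the 6, Klrb1c, Klrd1, Klrk1 and Cd160 passed the filter only with the invariant sums, and of the other 2 genes 1 rose. Klrk1, the gene of NKG2D, was at 157, 40.2, 7.83 and 65.2 against 0.945, 1.82, 0.0705 and 0 CPM (log2 fold change 6.20 ± 1.19 SE, adjusted p = 1.75e-05), and Klrd1, the gene of CD94, at 0, 20.1, 31.3 and 21.7 against 0.118, 0.365, 0.493 and 0 CPM (log2 fold change 6.15 ± 1.14 SE, adjusted p = 5.67e-06). Cd226, an adhesion receptor of NK and T cells, and Cd160 rose by 2.84 ± 0.34 and 1.97 ± 0.36. The adaptor Hcst, the most abundant member, did not pass the test (472, 622, 571 and 684 against 507, 507, 599 and 573 CPM, log2 0.09 ± 0.19). Of the list 15 had any UMI, and Ncr1, the NKp46 gene that marks NK cells, had 0 in invariant cells.

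Genes of cytotoxicity did not move as a block: 3 of 11 tested rose and 3 fell, with a median of 0.47. Fasl, the ligand that triggers Fas, rose (52.4, 341, 102 and 152 against 50.8, 59.9, 8.95 and 6.88 CPM, log2 fold change 3.31 ± 0.35 SE, adjusted p = 6.58e-19), as did Nkg7 and the cathepsin gene Ctsw (209.7, 402, 450.1 and 815 against 66.3, 91.2, 8.04 and 15.6 CPM, log2 fold change 4.68 ± 0.27 SE, adjusted p = 5.58e-65). The perforin gene Prf1, with 5 UMIs in invariant and 0 in other cells of those 3 libraries, was too low to be tested. Gzma, another granzyme, had 0 UMIs in invariant cells against 4.72, 9.49, 31.6 and 7.11 CPM in other cells. A floor of 3 UMIs over the invariant cells of the 3 tested libraries, 7.55 CPM, makes that at least 3.15-fold lower.

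Among cytokine receptors 7 of 23 rose, 3 of which passed the filter only with the invariant sums, and 2 fell. Il7r, the IL-7 receptor chain of long-lived T cells, measured 996, 1044, 638 and 630.1 CPM in invariant cells and 418, 354, 46.9 and 90.3 CPM in other cells (log2 fold change 2.70 ± 0.22 SE, adjusted p = 3.26e-31). Il2ra, the high-affinity chain for IL-2, was at 52.4, 40.2, 168 and 97.8 against 87.1, 67.2, 11.7 and 7.11 CPM (log2 fold change 2.81 ± 0.37 SE, adjusted p = 6.41e-12) and was above other cells in both MLN and below them in both lungs, with a log2 difference of -1.12 in the lung libraries alone. Il18r1, for IL-18, rose with 157, 80.3, 15.7 and 76.0 against 15.4, 9.12, 2.11 and 2.29 CPM (log2 fold change 3.57 ± 0.69 SE, adjusted p = 1.95e-05). Il10ra, the IL-10 receptor chain, fell (0, 20.1, 0 and 0 against 307, 249, 33.2 and 38.1 CPM, adjusted p = 5.96e-07), 24.6-fold lower over the pooled 3 libraries (95% counting interval 4.41 to 973, on 1 UMI). Il1rl1, the receptor for IL-33, had 0 UMIs in invariant cells and 456, 263, 10.8 and 15.6 CPM in other cells, at least 5.86-fold lower over the 3 libraries.

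Receptors of homing and retention were up in 8, of which 4 passed the filter only with the invariant sums, and down in 5 of 22 tested genes. Cxcr6, a receptor of tissue-resident lymphocytes, was at 105, 683, 509 and 771 against 524, 588, 138 and 142 CPM (log2 fold change 1.53 ± 0.21 SE, adjusted p = 8.50e-11). Ccr9, the receptor for gut homing, rose (52.4, 141, 270.1 and 424 against 68.7, 42.3, 66.3 and 95.6 CPM, log2 fold change 2.00 ± 0.26 SE, adjusted p = 7.90e-12). Ccr8, a receptor of Th2 cells and of cells in skin, was at 209.7, 0, 70.5 and 65.2 against 180.4, 148, 1.06 and 2.52 CPM (log2 fold change 2.54 ± 0.48 SE, adjusted p = 8.54e-06). In lung libraries alone Cxcr6 changed direction, to -0.82, as did Ccr8, to -1.78, and without MLN 1 the value of Ccr8 was -0.0647. All 18 Ccr8 UMIs in invariant cells of MLN 1 came from 1 of 45 cells.

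Transcripts of gamma TCR genes, which belong to the receptor of another T cell lineage, were abundant in invariant cells. Tcrg-C1, a constant region, measured 209.7, 80.3, 282 and 141 CPM in invariant cells and 0.945, 0.730, 1.13 and 0.229 CPM in other cells (log2 fold change 7.96 ± 0.53 SE, adjusted p = 5.87e-48). Tcrg-C4 measured 0, 80.3, 102 and 65.2 against 0.591, 0.365, 0.846 and 0.917 CPM (log2 fold change 6.78 ± 0.62 SE, adjusted p = 4.89e-25) and Tcrg-V1 0, 20.1, 43.1 and 54.3 against 0, 0, 0.775 and 1.38 CPM (log2 fold change 5.69 ± 0.85 SE, adjusted p = 2.85e-09). These 3 of the genes on the gamma delta list were the ones tested, and all 3 passed the filter only with the invariant sums, so their count is no measure of the list. Their values did not overlap between the classes in the 3 tested libraries. A UMI of any TCR gamma gene was found in 45 of 76 invariant cells (59.2%) and 1.55% of other cells, and after thinning in 43.4% and 1.16%. Delta chain transcripts, the partner of the gamma chain, were found in 0 of 76 invariant cells, which allows a share of cells with such a UMI of up to 3.95% (the limit of 3 cells), and in 1.96% of other cells. The gamma constant genes are near copies of each other, so how their reads split among them is uncertain.

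Th2 effector genes stood lower in more members than higher, with 7 of 17 tested down, 3 up and a median of -0.86. Areg and Ccr8 passed the filter only with the invariant sums, and of the other 15 genes 2 rose and 6 fell. Areg, the gene of amphiregulin, fell with 0, 40.2, 0 and 0 against 1453, 455, 10.9 and 2.98 CPM (adjusted p = 4.90e-06), 13.2-fold lower over the pooled 3 libraries (95% counting interval 3.65 to 109, on 2 UMIs). Il5 had 0 UMIs in invariant cells and was too low for the test (89.7, 31.4, 0.493 and 0 CPM in other cells). Il13 was at 0, 0, 31.3 and 0 against 322, 129.9, 8.95 and 52.0 CPM and did not pass (log2 -0.75 ± 0.54). All 8 Il13 UMIs of invariant cells came from 1 cell. Cysltr1, a leukotriene receptor, had 0 UMIs in invariant cells and 130.2, 101, 26.4 and 27.1 CPM in other cells, at least 4.79-fold lower.

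Follicular helper genes did not rise in any of 11 tested members, and 5 fell (median -1.41). Of all tested genes 1.94% rose and 2.36% fell, so the lack of a rise among 11 is no result. Cxcr5, the receptor for entry into follicles, had 0 UMIs in invariant cells and 6.14, 2.19, 146 and 127 CPM in other cells, and was not among the genes tested. Over the 3 libraries it was at least 16.3-fold lower. Tox2 fell with 0, 0, 7.83 and 0 against 19.3, 14.6, 158 and 140.3 CPM (adjusted p = 4.51e-11), 27.0-fold lower over the pooled 3 libraries (95% counting interval 7.46 to 223, on 2 UMIs). Both lymph nodes held more of it in other cells than the lungs did. Pdcd1, the gene of PD-1, was at 0, 0, 54.8 and 32.6 against 283, 115, 200.0 and 196 CPM (log2 fold change -2.22 ± 0.37 SE, adjusted p = 1.97e-07). Bcl6, the factor that directs this fate, had 0 UMIs in invariant cells, at least 3.96-fold below other cells, and Sostdc1 had 0 UMIs against 0.827, 0, 68.5 and 92.6 CPM.

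Among lineage transcription factors 4 rose and 5 fell of 14 tested. Tbx21 and Zbtb16 passed the filter only with the invariant sums, and of the other 12 genes 2 rose and 5 fell. Id2, which restrains E proteins, was at 209.7, 883, 1331 and 1662 against 341, 495, 164 and 209.6 CPM (log2 fold change 2.34 ± 0.19 SE, adjusted p = 9.91e-32), and its direction turned in the lung libraries alone, to -0.02. Rora rose (472, 301, 145 and 130.4 against 199, 174, 16.8 and 23.6 CPM, adjusted p = 2.86e-10). Tcf7, the gene of TCF-1, fell (157, 301, 192 and 65.2 against 132, 158, 595 and 601 CPM, log2 fold change -1.40 ± 0.26 SE, adjusted p = 4.33e-06), with 0.37 in the lung libraries alone. Of the NKT development and SLAM signaling genes 2 of 17 rose, Zbtb16 and Id2, and 2 fell, Gata3 and Id3. Of the 15 that the other cells' sums let through, which leave out Zbtb16, 1 rose and 2 fell. Sh2d1a, which encodes the adaptor SAP needed for NKT development, was at 52.4, 181, 227 and 217 against 73.0, 100.0, 471 and 478 CPM and did not pass (log2 -0.77 ± 0.25).

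Genes of T cell identity were lower in 5 of 13 tested members and higher in none, with a median of -0.28. Of all tested genes 2.36% were lower and 1.94% higher, so having none higher among 13 is no result. Cd4, which was also a gate, was at 52.4, 60.2, 149 and 119.5 against 285, 261, 303 and 304 CPM (log2 fold change -1.30 ± 0.27 SE, adjusted p = 0.000120). Cd247, the zeta chain of the TCR complex, Cd5, Lat and Cd2 fell as well, with log2 fold changes of -1.06 ± 0.24, -0.99 ± 0.23, -0.94 ± 0.18 and -0.97 ± 0.23 (SE). Cd3e, the most abundant member, was at 891, 1365, 1225 and 1564 against 957, 976, 1246 and 1273 CPM and did not pass. A Cd4 UMI was found in 34 of 76 invariant cells (44.7%) and 77.1% of other cells.

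Of the 12 genes with the largest rises among abundant genes, Prrt1 and Ckb, the brain-type creatine kinase, were on none of the lists. Prrt1 was at 0, 80.3, 86.1 and 163 against 0.354, 0.730, 0.916 and 2.06 CPM (log2 fold change 6.44 ± 0.54 SE, adjusted p = 2.64e-29) and Ckb at 105, 201, 395 and 391 against 48.7, 18.2, 22.4 and 13.1 CPM (log2 fold change 4.22 ± 0.29 SE, adjusted p = 3.95e-45). Neither overlapped between the classes in the 3 tested libraries. On the other side Tnfrsf4, the gene of OX40, fell with 0, 20.1, 3.91 and 0 against 559, 456, 156 and 137 CPM (adjusted p = 1.76e-19), 37.9-fold lower over the pooled 3 libraries (95% counting interval 10.5 to 313, on 2 UMIs). Ctla4, an inhibitory receptor, fell with 0, 20.1, 7.83 and 0 against 453, 451, 99.2 and 75.0 CPM (adjusted p = 1.85e-13), 18.5-fold lower over the pooled 3 libraries (95% counting interval 6.32 to 89.7, on 3 UMIs). Tnfsf8, the CD30 ligand, fell with 0, 0, 7.83 and 0 against 214, 179, 94.0 and 107 CPM (adjusted p = 1.08e-10), 21.4-fold lower over the pooled 3 libraries (95% counting interval 5.91 to 177, on 2 UMIs). All 3 were below other cells in every library. Vim, the intermediate filament vimentin, and Lgals1, galectin-1, fell too, with log2 fold changes of -2.95 ± 0.28 and -2.59 ± 0.24 (SE), as did Gpr183, an oxysterol receptor that guides cells in lymph nodes (-2.38 ± 0.30). Rflnb (-3.15 ± 0.35), Gstp3 (-2.99 ± 0.50) and Baz1a (-2.37 ± 0.41) were further members of the 12 abundant genes with the largest falls.

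Markers of other cell types were looked for in the same sums. In invariant cells of the 3 tested libraries the defining genes Cd8a, Foxp3, Ms4a1, Cd79a, Ncr1, C1qa, C1qb and Csf1r had 0 UMIs. They were picked after their values were seen, and the floor of 3 UMIs is 7.55 CPM, so absence is not shown. C1qa, for example, had a UMI in only 0.579% of other cells of MLN 1 and 3.13% of MLN 2. Other members of these lists had UMIs. Of B cell markers 2 of 8 were tested and 0 passed, and Ighm, the most abundant of the list, was at a mean of 199 CPM in invariant cells of the 3 libraries. The B cell list summed to 157, 201, 247 and 228 CPM in invariant and 149, 170, 286 and 361 CPM in other cells. Of myeloid markers 2 of 10 were tested and 0 passed. The most abundant was Fcer1g, with a mean of 30.3 CPM, and C1qc had 2 UMIs, in 2 of 45 invariant cells of MLN 1. The myeloid list summed to 0, 0, 54.8 and 119.5 CPM in invariant and 64.7, 58.0, 77.8 and 141 CPM in other cells. The part of such RNA in the results was not tested. Of CD8 and epithelial markers none was abundant enough for the test. Of 11 markers of NK and innate lymphoid cells 3 were tested, of which Rora rose and Gata3 and Il1rl1 fell. Proliferation genes did not rise in any of 12 tested members, and Hmgb2 fell (log2 fold change -1.34 ± 0.20 SE, adjusted p = 4.89e-09). Of all tested genes 1.94% rose and 2.36% fell, so no rise among 12 is no result about proliferation. Interferon-stimulated genes rose in 2 of 12, Ifit3 and Bst2, and fell in 1, Ifi27l2a. Ifit3 passed the filter only with the invariant sums, and of the 10 genes that the other cells' sums let through 1 rose and 1 fell. Activation and AP-1 genes rose in 1 of 14, Dusp2 (1.64 ± 0.50), and fell in 3, Fos (-1.43 ± 0.37), Cd69 (-1.17 ± 0.33) and Fosb, the last on 1 UMI of invariant cells.

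The rule required a productive beta chain and did not use its V segment, of which TRBV13-2 was the most frequent in invariant cells. The 76 invariant cells used 10 TRBV segments and the 4638 other cells 22, numbers that grow with the cells counted. TRBV13-2, one of the segments of Vβ8, was used by 1 of 3, 4 of 8, 15 of 45 and 11 of 20 invariant cells (33.3%, 50.0%, 33.3% and 55.0%) and by 11.7%, 12.5%, 12.8% and 12.4% of other cells. Over all libraries these were 40.8% against 12.4%, and every library's invariant share was higher than every share of other cells. Of 20 TRBV segments tested on numbers of cells 1 passed (5.00%), TRBV13-2, with a log2 fold change of 1.78 ± 0.24 (SE, adjusted p = 0.0435). That call was lost without lung 2 (log2 value 1.75, adjusted p = 0.466), without MLN 2 (1.49, 0.152) and without cells of extra chains (1.74, 0.0651), and counting clones in place of cells gave 0.0260.

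TRBV29, the segment of Vβ7, was used by 1 of 3, 1 of 8, 16 of 45 and 0 of 20 invariant cells against 1.48%, 1.47%, 1.37% and 1.36% of other cells. The share in MLN 1 (35.6%) was the highest and MLN 2 had none. The 16 cells of MLN 1 had 16 different beta chains and 10 different J segments. TRBV29 did not pass the test (log2 fold change 3.46, adjusted p = 0.277). It did without MLN 2 (4.52, adjusted p = 2.65e-05), and with lung 1 added, a choice made after seeing the data (3.67, 6.34e-05). It did not without lung 2 (3.52, 0.466), and without MLN 1 the value was 1.35 (0.962). TRBV13-3 was used by 9 invariant cells (11.8% against 8.41% of other cells), TRBV1, the segment of Vβ2, by 7 (9.21% against 8.19%) and TRBV13-1 by 4 (5.26% against 6.53%), and none of the 3 passed the test. TRBV13-1, 13-2, 13-3 and 29 together covered 62 of 76 (81.6%, 95% interval 71.0 to 89.5), against 28.8% of other cells, and in each library 100%, 75.0%, 80.0% and 85.0% against 32.3%, 24.3%, 28.8% and 26.0%. Among cells with junction 1 TRBV13-2 was used by 13 of 30 and TRBV29 by 9, and among those with junction 2 by 9 and 5 of 22. With TRBV1 added 69 of 76 were covered (90.8%) against 37.0%. TRBV31 was the segment of 1 invariant cell (1.32%) and of 10.4% of other cells, and TRBV5 of 1 and of 9.25%. For J segments 0 of 12 passed edgeR's test (0.00%), with a lowest adjusted p of 0.95.

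**Figure D3:**
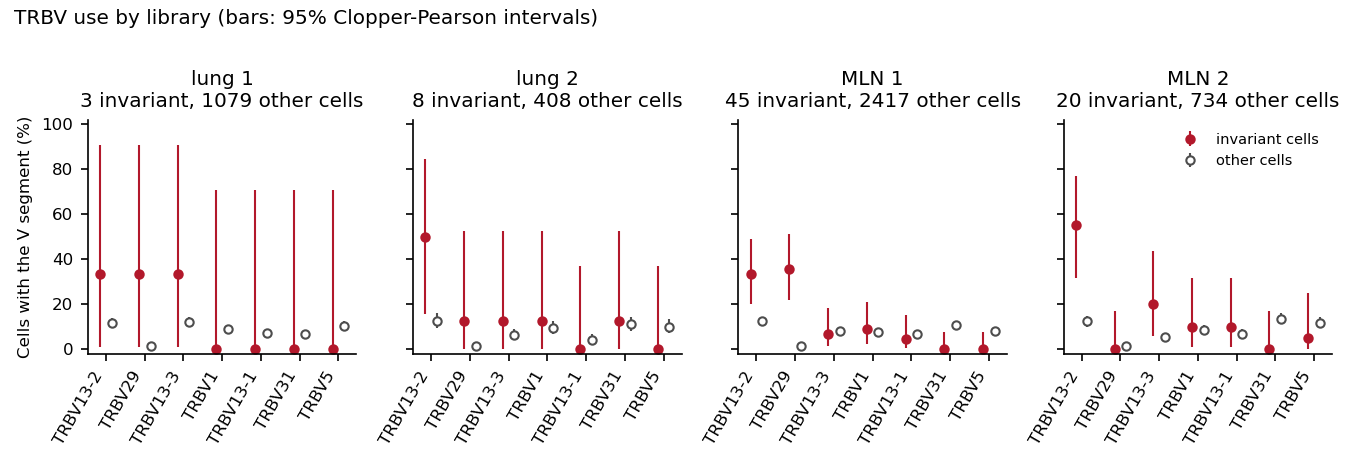
Percent of invariant cells (filled) and other cells (open) of each library with each of 7 TRBV segments, with exact 95% intervals as bars. TRBV13-2 lies higher in invariant than in other cells in all 4 libraries, and TRBV29 in MLN 1 reaches 35.6% against 1.37%.

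A clone was defined by the V, J and nucleotide CDR3 of all productive chains, and 0 of 76 invariant cells were in a clone of 2 or more cells, which allows a share of up to 3.95% as the limit of 3 cells and up to 4.74% by the exact 95% interval, against 1324 of 4638 other cells (28.5%). Per library this was 0 of 3, 0 of 8, 0 of 45 and 0 of 20, against 37.8%, 21.6%, 30.2% and 13.4% of other cells. By the beta chain alone 8 of 76 (10.5%) and 41.0% were in shared sets. The 76 cells held 75 different beta CDR3 sequences. In MLN 1, 2 invariant cells shared both junction 5 and the beta chain, and they counted as different clones because 1 of them also carried an alpha chain of TRAV6-6. The beta chain of these 2 cells joined TRBV2 to TRBJ2-5 and is printed here because 1 other cell of MLN 1 with another alpha chain, TRAV7-4, carried it too.
shared beta junction: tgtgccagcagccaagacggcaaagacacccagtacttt

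Grouped by expression without TCR genes, most invariant cells fell into 1 of 12 clusters. That cluster held 88 cells, of which 63 were invariant (82.9% of all invariant cells) and 25 were not, and its leading genes were Ccl5, Zbtb16, Xcl1, Cxcr3, Ctsw, Prrt1, Tbx21, Ckb, Nkg7 and Klrb1c. They describe the cluster and, as the cells were clustered on expression, are not a test of it. The 13 invariant cells outside it were spread over 7 clusters. At other settings of the clustering 58 to 63 invariant cells fell together.

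**Figure D4:**
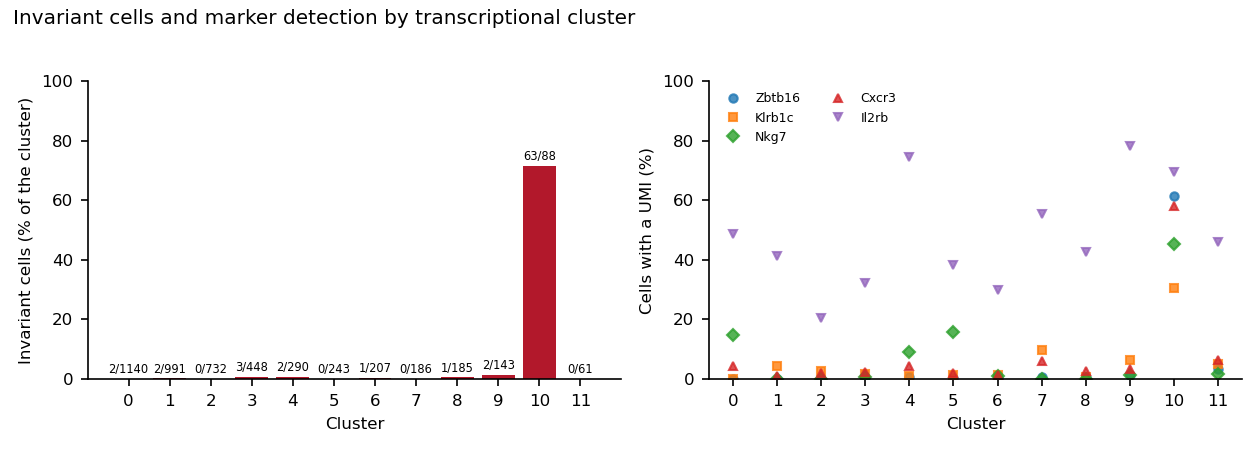
Left, invariant cells as a percent of the cells in each of the 12 clusters made without TCR genes, with the 2 cell numbers above each bar; right, percent of all cells of each cluster with a UMI of 5 marker genes. Cluster 10, led by Ccl5 and Zbtb16, holds 63 of the 76 invariant cells.

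The invariant cells outside this cluster held Zbtb16 and gamma TCR UMIs in shares close to those inside, and UMIs of Nkg7, Klrb1c and Ccl5 in lower shares, with no test of the differences. A Zbtb16 UMI was found in 9 of 13 outside (69.2%) and 42 of 63 inside (66.7%), and a gamma TCR UMI in 9 of 13 and 36 of 63. Nkg7 was found in 1 of 13 and 32 of 63, Klrb1c in 1 of 13 and 20 of 63, Ccl5 in 2 of 13 and 39 of 63 and Tbx21 in 2 of 13 and 27 of 63. Cxcr3 was found in 4 of 13 and 35 of 63, and Il2rb in 8 of 13 and 44 of 63. The exact 95% intervals of Klrb1c overlapped (0.195 to 36.0% outside and 20.6 to 44.7% inside). The clusters were made from these genes, so these shares are a description. Outside cells had more UMIs, a median of 6645 against 4562. Their beta chains used the TRBV13 and TRBV29 segments in 10 of 13 (76.9%) against 52 of 63 (82.5%).

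The 25 cells in the cluster without the TRAV11-TRAJ18 chain had 21 different TRAV segments. A Zbtb16 UMI was found in 12 of the 25 and a gamma TCR UMI in 12 of the 25, while 6 of 25 (24.0%) used TRBV13 or TRBV29 segments, against 28.8% of other cells outside the cluster. The 25 cells were 0, 1, 16 and 8 by library. Set against them, 0 of 807 genes passed edgeR's adjusted test in invariant cells, and 14 had an unadjusted p under 0.05. The arm of lung 2 was 1 cell of 2366 UMIs, so the lack of calls does not show that the classes were alike.

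The deepest invariant cell had 30314 UMIs and 5048 genes, where the next had 12090 UMIs, and gave 11.8% of invariant UMIs of MLN 1. It held 8 of 8 Il13, 17 of 22 Mki67, 25 of 32 Top2a and 16 of 34 Stmn1 UMIs of all invariant cells. Its beta chain, of TRBV13-2, was also carried by 4 other cells of the same mouse with a TRAV14-2 alpha chain. Its part in the results was measured by leaving it out, which gave 399 genes in place of 364, 344 of them shared.

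Between organs, 24 of 1053 genes that could be tested in invariant cells passed (2.28%), 21 higher (1.99%) and 3 lower (0.285%) in lung than in MLN, on 11 invariant cells of lung and 65 of MLN. Among the higher were immediate-early genes and phosphatases that restrain MAP kinases. Dusp5 was at 839, 1004, 23.5 and 21.7 CPM in invariant cells (log2 fold change 5.29 ± 0.43 SE, adjusted p = 5.57e-06) and at 598, 507, 19.9 and 20.4 CPM in other cells. Nr4a1, induced by TCR signals, was at 944, 1084, 27.4 and 97.8 CPM (log2 fold change 4.36 ± 0.49 SE, adjusted p = 0.000116), with 971, 755, 30.6 and 29.8 CPM in other cells. Both lung libraries were above both of MLN in either class. Junb, an AP-1 subunit, was at 3669.9, 3995, 356 and 152 CPM (log2 fold change 3.77 ± 0.30 SE, adjusted p = 5.57e-06), and Fos at 419, 261, 19.6 and 21.7 CPM (log2 fold change 3.88 ± 0.69 SE, adjusted p = 0.00734). Dusp1, Ppp1r15a, Tsc22d3 and Fosl2 had log2 differences of 4.23 ± 0.42, 3.90 ± 0.61, 3.94 ± 0.87 and 3.64 ± 0.81. Enzymatic digestion was used for lung and not for MLN, so the organ and the preparation cannot be told apart.

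The 3 lower genes were Isg15, an interferon-stimulated gene (52.4, 20.1, 309 and 413 CPM, log2 fold change -3.53 ± 0.69 SE, adjusted p = 0.0125), Izumo1r (0, 80.3, 591 and 619 CPM, log2 fold change -3.37 ± 0.58 SE, adjusted p = 0.00590) and Plac8 (52.4, 60.2, 434 and 304 CPM, log2 fold change -2.70 ± 0.57 SE, adjusted p = 0.0220). With the mouse as a replicate block 43 genes passed, 28 higher and 15 lower. In 23 of the 24 genes other cells differed between organs in the same direction, and 3 of the 24 passed the test of whether the organ difference was not the same in the classes.

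**Figure D5:**
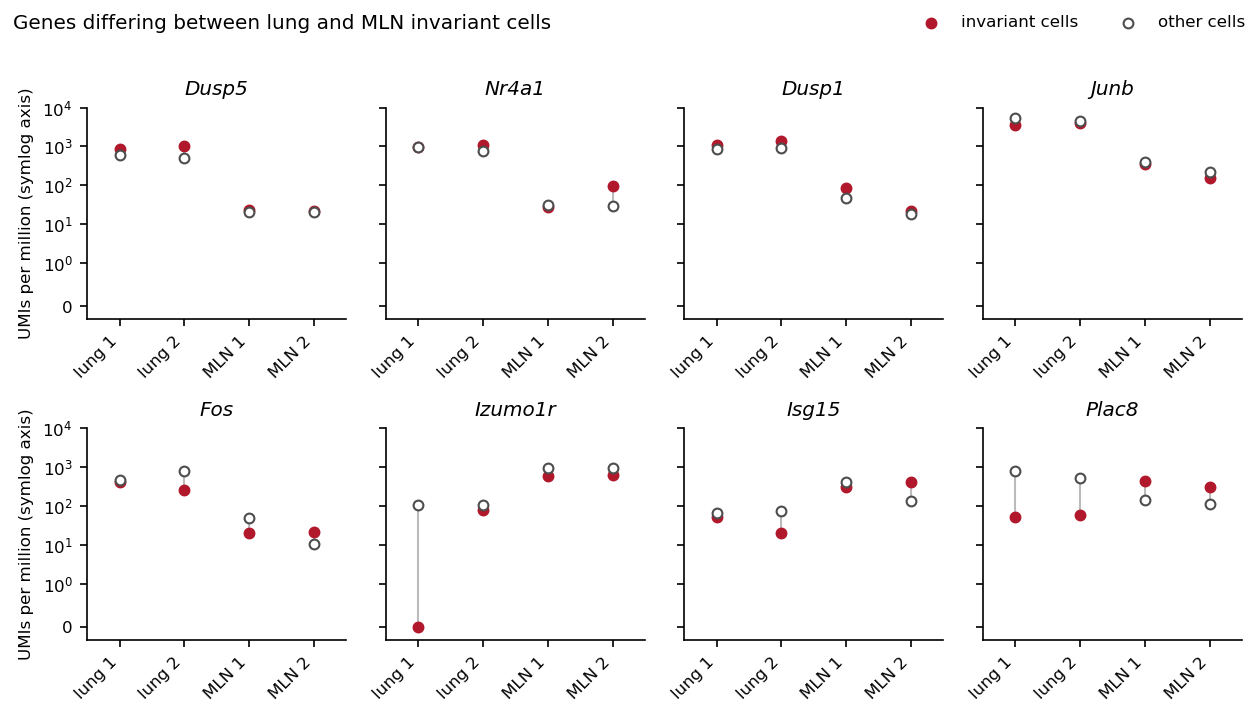
Level in CPM of 8 of the 24 genes that differed between lung and MLN in invariant cells, for invariant cells (filled) and other cells (open) of each library, on an axis that is linear from 0 to 1 and logarithmic above. Lung and MLN lie in the same order in both classes in each panel except that of Plac8, which is lower in lung in invariant cells and higher in lung in other cells.

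That test, on all 4 libraries, called 61 of 8276 genes (0.737%, with 6.98% at an unadjusted p under 0.05), 5 with a log2 difference of invariant minus other cells that was higher in lung than in MLN (0.0604%) and 56 with one that was lower (0.677%), in sign and not in size, and 30 of the 61 were also called between invariant and other cells. Without MLN 1 it called 6 genes and without MLN 2 23. Among the 5 were Zbtb16 (adjusted p = 0.0418), which had 0 UMIs in other cells of both lungs, so that no size is given, and Klrb1c (log2 fold change 3.79 ± 1.04 SE, adjusted p = 0.0397), whose value turned to -7.58 without lung 2 and whose call was lost with DESeq2 (3.88, adjusted p = 0.199), without MLN 1 (3.38, 1) and without MLN 2 (4.07, 0.696). Tcf7 (log2 fold change 2.40 ± 0.57 SE, adjusted p = 0.00645), with 157, 301, 192 and 65.2 against 132, 158, 595 and 601 CPM, stood below other cells in both MLN and above them in both lungs. Cd27, a costimulatory receptor, was at 472, 181, 157 and 152 against 82.6, 74.1, 326 and 288 CPM (log2 fold change 2.37 ± 0.55 SE, adjusted p = 0.00531), and Lmo4, a LIM-only transcriptional regulator, at 629, 622, 348 and 239 against 22.1, 17.5, 56.9 and 60.5 CPM (log2 fold change 2.13 ± 0.43 SE, adjusted p = 0.000367). Leaving out single libraries ended these calls. Tcf7 lost its call without lung 2 (1.56, adjusted p = 0.881), without MLN 1 (3.57, 0.0917) and without MLN 2 (1.96, 0.687). Cd27 did so without lung 1 (2.04, 0.124), without MLN 1 (2.35, 0.848) and without MLN 2 (2.45, 0.139), and Lmo4 without lung 2 (1.71, 0.222), without MLN 1 (2.60, 0.123) and without MLN 2 (1.93, 0.287). Zbtb16 lost its call without each of the 4 libraries, with adjusted p-values from 0.106 to 1.

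Among the 56, Ccr8 was at 209.7, 0, 70.5 and 65.2 against 180.4, 148, 1.06 and 2.52 CPM (log2 fold change -7.40 ± 0.77 SE, adjusted p = 3.86e-18). In other cells it was high in lung and low in MLN. Its level in lung invariant cells rested on 4 UMIs of 1 cell of lung 1, so the size is uncertain, and without lung 1 that group was at 0 and gave no size. Id2 (-2.92 ± 0.40, adjusted p = 7.36e-10), Cxcr6 (-2.82 ± 0.42, 1.58e-08), Il7r (-2.36 ± 0.38, 3.69e-07), Il2ra (-5.03 ± 0.74, 1.40e-08), Ctsw (-4.13 ± 0.41, 6.47e-20) and Plac8 (-5.40 ± 0.60, 6.24e-16) were also among them. Il13, Nfkb1, Zc3h12a, Stmn1, Top2a, Tspan13 and Mki67 had 0 UMIs in invariant cells of both lungs, so no size is given for them. All 7 lost their call with DESeq2 and without MLN 1 (adjusted p from 0.102 to 1), and all but Il13 without lung 2 (0.0688 to 0.639). Without MLN 2 Zc3h12a, Tspan13 and Mki67 lost theirs (0.100 to 0.134), and without lung 1 Il13, Zc3h12a and Mki67 (0.0659 to 0.129). The Il13 values of other cells were 322, 129.9, 8.95 and 52.0 CPM. The floor of 3 UMIs over invariant cells of lung is 43.6 CPM. Without the deepest invariant cell Stmn1 (adjusted p = 0.0742), Top2a (0.705), Mki67 (0.762) and Il13, which then had no invariant UMI, no longer passed.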

How the data were processed

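Of the series, the 4 lung and MLN expression libraries and their 4 TCR libraries were used. The deposited expression values are raw counts of UMIs per gene and barcode, which the authors made with Cell Ranger (2.1.1 and 3.0.1 in the submitters' processing notes) on mm10, combining both sequencing runs. The TCR files, also made by the authors with Cell Ranger, hold assembled contigs with counts of reads and UMIs. The medLN and MLN hashtag run was not used here. Barcodes numbered 6319, of which 5938 passed the 3 expression filters and 4714 also had both chains. Of 79 cells with the invariant contig that passed them, 3 had no productive TCRβ. A second TCRα was present in 5.26% of invariant and 15.3% of other cells, and extra chains (over 1 TCRβ or over 2 TCRα) in 7.89% and 6.04%. No doublet caller was run. The members and gene lists were chosen with earlier results of these data known.

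UMIs were summed per library and class without TCRα and TCRβ genes (242). Libraries with under 5 invariant cells were left out of the comparison of classes. Sums were tested with edgeR 4.0.16 under R 4.3.3 (filterByExpr, TMM, quasi-likelihood test, Benjamini-Hochberg, threshold 0.05), cells per TRBV or TRBJ segment (of at least 10 cells) likewise without TMM. The invariant and other sums of a library come from the same animal and library, and their deviations correlated at 0.232, 0.183 and 0.157 over 8474 genes. For lung and MLN of a mouse this was 0.159 over 1053 genes. Alternatives were DESeq2 1.42.0, its size factors, no filter on low counts, each library left out, other choices of cells and contigs, and no block. In simulated data at a log2 change of 2 the comparison of classes recovered 106 of 192 genes (71 of 87 raised) with 2 false calls, organ by class 26 of 193 with 0, and lung against MLN 163 of 175 with 6. In 1 draw each, the most frequent TRBV segment raised by a log2 of 2 was not called, and a less frequent one raised by 3 was. For TRBJ the segment raised by 2 was called with 1 false call, and the one raised by 3 with 0. These draws held counting error alone and used different segments, so they give no limit of detection.

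Clusters were made with Seurat 5.3.0 (2000 variable genes, 15 principal components, resolution 0.8). Exact intervals came from scipy 1.17.1. Cells were thinned to 2000 UMIs, which 76 of 76 invariant and 4554 of 4638 other cells reached. A count of 0 was set to 3 UMIs for limits. Ratios on 1 to 3 UMIs have exact intervals of the pooled counts. Junctions were matched to the RefSeq GRCm38.p6 genome with GENCODE vM21 annotation, the authors' build being mm10. Named genes are the 5 markers, up to 6 members of each list by lowest p with the most abundant member that did not pass, the 12 largest changes each way of genes with a mean of 100 CPM, and up to 8 each way between organs. Genes named outside this rule, after their values were seen, were Cxcr5, Sostdc1, Il5, Ifng, Il18r1, Prf1, Il17a and the defining markers of other cell types. Some genes are not reported here.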

Additional observations from a re-analysis of the deposited data

Results flagged for a closer look

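The difference of invariant from other cells was itself different between lung and MLN for 61 genes, by edgeR's test of that difference on sums of the 4 libraries, and this was tested on 3 invariant cells of lung 1 and 8 of lung 2. The fitted log2 values, lung difference minus MLN difference, were 5.62 for Zbtb16, 3.79 for Klrb1c, 2.40 for Tcf7, 2.37 for Cd27 and 2.13 for Lmo4. They were -12.84 for Il13, -12.60 for Nfkb1, -12.42 for Zc3h12a, -12.28 for Stmn1, -12.13 for Top2a, -11.95 for Tspan13, -11.87 for Mki67 and -7.40 for Ccr8. Zbtb16 had 0 UMIs in other cells of lung, and the genes from Il13 to Mki67 had 0 in invariant cells of lung, so their fitted values depend on the prior count and give no size. Each of these 7 genes lost its call with DESeq2 and without MLN 1 (adjusted p from 0.102 to 1), and Zbtb16, Zc3h12a and Mki67 lost theirs without each of the 4 libraries. Of the 22 Mki67 UMIs in invariant cells 17 came from 1 cell of MLN 1.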

How the results depend on the processing

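The comparison of classes gave 364 genes in the report, 148 with DESeq2 and 76 in the lung libraries alone, and leaving out each library gave 146 to 381. With the library as a replicate block replaced by organ, 272 genes passed, 267 of them shared. Against other cells of the same cluster it gave 0 (14 at an unadjusted p under 0.05, of 807 tested). Organ by class gave 61, 18 with DESeq2, 37 with strict contigs and 6 to 69 without each library. Lung against MLN gave 24, 16 with DESeq2 (all of them among the 24), 39 without a filter on low counts (20 among the 24), 43 with the mouse as a replicate block (21) and 16 to 23 without each library (12 to 17). TRBV use gave 1 segment, 0 to 1 without each library, 0 without cells of extra chains and 6 with lung 1 added. Adding lung 1, taking invariant cells of the shared cluster only and leaving out the deepest invariant cell were chosen after seeing the data, and in the comparison of classes they gave 304, 357 and 399 genes. Against the other cells of the same cluster alone the log2 value changed sign for Cxcr3 (-1.003), Xcl1 (-0.22), Il4 (0.17), Sh2d1a (0.35), Hcst (-0.00598), Srgn (0.40), Plac8 (-0.23), Icos (0.38), Tcf7 (0.0658), Cd5 (0.25), Tnfrsf18 (-0.27), Hmgb2 (0.0141), Tubb5 (1.22) and Junb (0.33). In the lung libraries alone the log2 value changed sign for Id2 (-0.0178), Sh2d1a (0.26), Hcst (-0.27), Il2ra (-1.12), Ccr8 (-1.78), Plac8 (-3.79), Il2rg (-0.61), Cxcr6 (-0.82), Tcf7 (0.37), Cd3e (-0.19), Tnfrsf18 (-1.72) and Ighm (0.36). In the MLN libraries alone the log2 value changed sign for Tubb5 (0.0441). With lung 1 added the log2 value changed sign for Hcst (-0.0617), Plac8 (-0.0774), Il2rg (-0.17), Cd3e (-0.011) and Tnfrsf18 (-0.37). Without MLN 1 the log2 value changed sign for Ccr8 (-0.0647) and Plac8 (-0.25). Without MLN 2 the log2 value changed sign for Tnfrsf18 (-0.33) and Ighm (0.11). Without lung 2 the log2 value changed sign for Tubb5 (0.0441). Without a filter on low counts the log2 value changed sign for Tnfrsf18 (-0.0411). With strict contigs the log2 value changed sign for Tnfrsf18 (-0.18). Without cells of extra chains the log2 value changed sign for Tnfrsf18 (-0.0618). With invariant cells of the shared cluster only the log2 value changed sign for Ighm (0.0188). For TRBV segments the value changed sign for TRBV13-1 without MLN 1 (0.23) and for TRBV13-3 without MLN 2 (-0.0427). In organ by class, Klrb1c changed sign without lung 2 (-7.58). Without each library in turn the values ran from -0.72 to 0.23 for TRBV13-1, -0.0427 to 1.65 for TRBV13-3, -0.0647 to 5.54 for Ccr8, -0.28 to 0.11 for Ighm, -0.25 to 1.57 for Plac8, -0.33 to 0.25 for Tnfrsf18, -0.70 to 0.0441 for Tubb5 and -7.58 to 5.12 for Klrb1c. The cause was not tested.

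Of 73 genes named by the rule and reported here that passed in the comparison of classes, 37 passed without each library in turn. Calls were lost for 7 of 69 such genes without lung 2 and for 20 of 71 without MLN 2. Without MLN 1 17 of 69 were lost and 1 more reversed, and with DESeq2 25 of 73 were lost. These losses are not marked beside each gene. Leaving out cells below a novelty of 0.8 left the same 4714 cells. The invariant sums are shallow, 49810 UMIs in lung 2, so a gene of few UMIs there could not be told from absence. The replicates are 2 mice, and lung 1 gave 3 invariant cells.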

Other observations

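Values of further list members in invariant and other cells come from edgeR's quasi-likelihood test on the 3 libraries with at least 5 invariant cells. Of the naive and central T cell genes 2 of 11 rose and 3 fell in invariant cells, with a median log2 difference of -0.13. Igfbp4, which rose, passed the filter only with the invariant sums, and of the 9 genes that the other cells' sums let through 1 rose and 3 fell. Igfbp4, a binding protein of insulin-like growth factors, was at 315, 0, 117 and 228 against 3.31, 18.6, 7.89 and 5.27 CPM (log2 fold change 3.80 ± 0.42 SE, adjusted p = 7.36e-17), and Satb1, a chromatin organiser of T cells, at 367, 381, 243 and 337 against 172, 131, 126 and 125 CPM (log2 fold change 1.22 ± 0.24 SE, adjusted p = 4.75e-05). S1pr1, the receptor by which T cells leave lymph nodes, fell (0, 0, 19.6 and 10.9 against 57.3, 107, 43.3 and 45.6 CPM, log2 fold change -1.85 ± 0.56 SE, adjusted p = 0.0254). Of 3 chemokines tested Ccl1 was the one that fell, with 0 UMIs in invariant cells and 216, 103, 12.4 and 9.86 CPM in other cells, at least 3.12-fold lower over the 3 tested libraries. Among interferon-stimulated genes Ifit3 was at 0, 0, 70.5 and 86.9 against 0.236, 3.65, 22.8 and 9.63 CPM (log2 fold change 2.08 ± 0.50 SE, adjusted p = 0.00153), Bst2 at 0, 201, 227 and 337 against 70.0, 88.3, 185 and 72.0 CPM (log2 fold change 1.11 ± 0.26 SE, adjusted p = 0.00113) and Ifi27l2a at 367, 763, 1049 and 760.5 against 1072, 1494, 3239 and 1861 CPM (log2 fold change -1.38 ± 0.16 SE, adjusted p = 9.82e-16). In the list of regulatory T cell genes 1 of 4 rose, Il2ra, and 1 fell, Ctla4.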
